A study of Mus musculus with 6 samples.

Results

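Targets of the hypoxia-inducible factors (HIFs) that lie outside glycolysis were examined in tumour-infiltrating dendritic cells: Egln3, Egln1, Ndrg1, Hilpda, Bnip3, Vegfa, Adm, Ankrd37 and P4ha1, together with the vascular endothelial growth factor (VEGF) receptor Flt1. These 10 genes were taken by symbol from a table of 26519 genes, and all 10 passed the filter on low counts. The cells came from tumours of MC38, a mouse colon carcinoma line, collected 10 days after the line was inoculated into MAVS knockout mice (3 samples) or WT mice (3 samples). MAVS is the mitochondrial adaptor through which RIG-I and related sensors signal viral RNA, and the deletion was in the host, while the tumour line was the same in both groups. The labels give no sex, age or strain, do not say which part of Mavs was deleted, and do not say whether each sample came from a separate mouse, so the p-values measure the spread between these samples only.

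HIF is a pair of an oxygen-sensitive alpha subunit and the stable subunit Arnt. With oxygen present, prolyl hydroxylases of the Egln family mark the alpha subunit, and the ubiquitin ligase containing Vhl has it destroyed. When oxygen is low the alpha subunit persists, pairs with Arnt and binds genes at a short core sequence, raising transcripts for glucose breakdown, blood vessel growth, mitochondrial removal, lipid storage and collagen modification. Myeloid cells can also build up HIF under inflammatory stimuli with oxygen present. In a bulk sample, fewer cells of a type and less RNA per cell cannot be told apart.

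In GENCODE M21 on GRCm38 the genes, all protein-coding, lie as follows: Egln3 (ENSMUSG00000035105, chr12:54178981-54203860, minus strand), Egln1 (ENSMUSG00000031987, chr8:124908587-124949324, minus strand), Ndrg1 (ENSMUSG00000005125, chr15:66929318-66969640, minus strand), Hilpda (ENSMUSG00000043421, chr6:29272488-29275446, plus strand), Bnip3 (ENSMUSG00000078566, chr7:138890836-138909519, minus strand). The others are Vegfa (ENSMUSG00000023951, chr17:46016993-46032369, minus strand), Flt1 (ENSMUSG00000029648, chr5:147561604-147726011, minus strand), Adm (ENSMUSG00000030790, chr7:110627661-110629820, plus strand), Ankrd37 (ENSMUSG00000050914, chr8:45996902-46005707, minus strand) and P4ha1 (ENSMUSG00000019916, chr10:59323296-59373304, plus strand).

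The core sequence to which HIF binds is ACGTG or GCGTG. It was searched on both strands in the RefSeq promoter windows of GRCm38.p6, which run from 250 bases before to 50 bases from a transcript start. Of the 10 genes 9 had a window there, 11 windows in all. ACGTG stood in 7 of the 11 windows, against 19.6% of all 32851 windows and 25.7% of the 12042 windows of tested genes. GCGTG stood in 9 of the 11, against 32.4% of all windows and 49.7% of those of tested genes. On the opposite strand the cores read CACGT and CACGC, and the letters CACGTG hold ACGTG on both strands. A match describes letters, not a bound site, and the genes were chosen as known HIF targets, so these shares carry no test. The bases before the start are shown for 3 genes whose transcripts rose in the knockout libraries (Hilpda, Bnip3 and Egln3) and for 2 that did not pass (Ankrd37 and Egln1), since all 5 hold ACGTG. Capitals mark ACGTG or GCGTG on either strand.
Hilpda, chr6:29272376-29272625, plus strand: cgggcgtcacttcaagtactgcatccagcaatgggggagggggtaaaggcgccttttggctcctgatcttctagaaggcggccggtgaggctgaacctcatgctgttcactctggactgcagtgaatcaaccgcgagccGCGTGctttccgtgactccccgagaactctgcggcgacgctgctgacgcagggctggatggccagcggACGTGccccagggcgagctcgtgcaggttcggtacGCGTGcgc
Bnip3, chr7:138909507-138909756, minus strand: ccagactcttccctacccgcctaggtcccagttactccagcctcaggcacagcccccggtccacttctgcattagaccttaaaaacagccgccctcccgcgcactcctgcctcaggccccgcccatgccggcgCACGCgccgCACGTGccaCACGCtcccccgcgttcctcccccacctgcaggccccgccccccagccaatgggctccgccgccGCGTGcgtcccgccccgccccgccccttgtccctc
Egln3, chr12:54203875-54204124, minus strand: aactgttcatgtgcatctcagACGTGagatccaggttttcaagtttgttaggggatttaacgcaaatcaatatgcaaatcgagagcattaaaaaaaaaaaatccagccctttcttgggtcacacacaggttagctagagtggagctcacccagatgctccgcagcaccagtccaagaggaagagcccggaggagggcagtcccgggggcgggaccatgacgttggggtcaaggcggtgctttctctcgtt
Ankrd37, chr8:45999851-46000100, minus strand: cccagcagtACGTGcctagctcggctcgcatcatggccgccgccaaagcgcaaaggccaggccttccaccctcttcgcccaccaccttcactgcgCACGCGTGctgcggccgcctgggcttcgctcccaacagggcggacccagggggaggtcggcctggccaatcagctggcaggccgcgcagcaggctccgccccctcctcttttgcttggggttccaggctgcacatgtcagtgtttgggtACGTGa
Egln1, chr8:124949255-124949504, minus strand: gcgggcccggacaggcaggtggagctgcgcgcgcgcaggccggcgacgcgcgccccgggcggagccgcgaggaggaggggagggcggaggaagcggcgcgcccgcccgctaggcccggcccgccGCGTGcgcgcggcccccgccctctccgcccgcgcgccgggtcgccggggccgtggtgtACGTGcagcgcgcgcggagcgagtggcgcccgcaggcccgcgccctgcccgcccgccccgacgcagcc
In Hilpda the ACGTG began 43 bases before this start, which is the downstream of its 2 RefSeq starts. The Bnip3 promoter held the palindrome CACGTG, beginning 108 bases before the start. Egln3 held its ACGTG 229 bases before the start, Ankrd37 had one at 241 and one at 6 bases before it, and Egln1 had one at 68 bases before it. The windows of Flt1 and Adm held GCGTG on the opposite strand and no ACGTG. Transcripts that rose and transcripts that did not pass were thus both found among promoters that hold the core.

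Of the 10 genes, 5 rose in MAVS knockout libraries (Egln3, Ndrg1, Hilpda, Bnip3 and Flt1), none fell and 5 did not pass. Across the 12580 genes tested, 222 were higher in knockout libraries (1.76%), 132 were lower (1.05%) and 354 were called in either direction (2.81%), by edgeR's quasi-likelihood test at a Benjamini-Hochberg adjusted p below 0.05. The median log2 fold change was 0.89 over the 10 genes and -0.0022 over all tested genes. Knockout and WT values were fully apart for 7 of the 10, all higher in knockout, against 21.8% of tested genes in either direction and 11.2% in that direction. All 10 log2 fold changes were above 0 (9 with library size alone, where Egln1 turned), as were 49.6% of those tested. These genes and the lists below were chosen with earlier results of these data known, so such comparisons with all tested genes carry no test. The count of 5 depended on the libraries: it was 1 without knockout replicate 1 or 3, 2 without knockout replicate 2, 3 without WT replicate 1 or 2, and 6 without WT replicate 3. Hilpda passed in each of those 6 fits, Egln3 and Ndrg1 in 3, Flt1 in 2, and Bnip3 in 1.

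**Figure D1:**
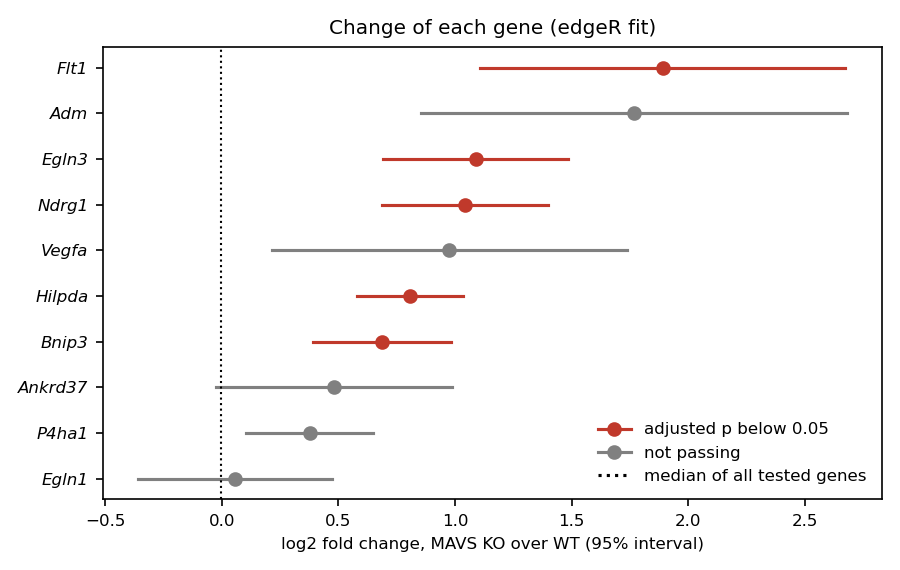
Log2 fold change of each gene, MAVS knockout over WT, with its 95% interval from the edgeR fit; red marks genes with an adjusted p below 0.05. Flt1 lies furthest to the right at 1.89 and Egln1 closest to the dotted median of all tested genes at 0.06.

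The libraries held 14466640 to 18862534 counts in knockout and 17357031 to 20851733 in WT mice. Mavs itself stood at 10.4 ± 2.09 CPM in knockout libraries and 37.7 ± 3.32 CPM in WT libraries (SD, n = 3 each), where CPM is the count scaled to library size with TMM factors. The number of genes with a count fell into 2 ranges that crossed the genotypes. It was 20530 in knockout replicate 1, 20082 in WT replicate 1 and 21432 in WT replicate 3, against 16299 and 15635 in knockout replicates 2 and 3 and 16947 in WT replicate 2. Of 16 dendritic cell markers, 5 were lower (Kmo, Cd209a, Xcr1, Flt3 and Zbtb46), 2 were higher (Sirpa and Ccr7) and 9 did not pass. Their summed level was 41018 to 51460 CPM in knockout and 36809 to 44589 CPM in WT libraries. Of the 16, 7 had a log2 fold change above 0, and the list's median was -0.36. Of the 6 fits that left out 1 library, Kmo, Cd209a and Xcr1 passed in 6, Flt3 in 5, Sirpa in 2, Zbtb46 in 1 and Ccr7 in none. Of 16 macrophage markers none passed by edgeR (10 had an unadjusted p below 0.05, DESeq2 called 5 and limma-voom 0). Their summed level was 38849 to 49805 CPM in knockout and 34307 to 42049 CPM in WT libraries, and none of the 16 was below 1 CPM in every library. The sum of 8 monocyte markers was 8583 to 17134 CPM in knockout and 5705 to 6454 CPM in WT libraries, but 4 of the 8 had a log2 fold change above 0 and the list's median was -0.046. The difference in the sum was mostly Chil3, at 12484, 3237 and 6437 CPM in knockout, against 1670, 515 and 1850 CPM in WT libraries. Chil3 was the 1 member that passed (edgeR adjusted p = 0.036); its call was lost in 5 of the 6 fits that left out 1 library (adjusted p up to 0.12) and with robust dispersion (0.192). Of neutrophil markers 5 of 10 were below 1 CPM in every library, and the sum was 97.5 to 104 CPM in knockout and 59.1 to 106 CPM in WT libraries, with Mmp8 passing (higher). The T cell sum was 13.2 to 28.2 CPM in knockout and 15.8 to 21.2 CPM in WT libraries, and the fibroblast sum 15.1 to 51.1 CPM in knockout and 18.8 to 36.2 CPM in WT libraries, with no gene of either called. Of 10 epithelial markers 9 had a row, 7 of these were below 1 CPM in every library, and 2 were tested, none passing. The epithelial sum was 419 to 677 CPM in knockout and 363 to 541 CPM in WT libraries. The part of these cell types in the results was not tested.

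Egln3 and Egln1 encode 2 of the oxygen-sensing prolyl hydroxylases that mark HIF for destruction, and both are known HIF targets that feed back on it. Egln3 stood at 165, 160 and 138 CPM in knockout replicates 1 to 3, against 60.7, 60.9 and 96.0 CPM in WT replicates 1 to 3. All 3 knockout libraries lay above all 3 WT libraries, and WT replicate 3 was the closest to them. The log2 fold change was 1.09 (SE 0.18, 95% interval 0.69 to 1.49, edgeR adjusted p = 0.0164), a 2.13-fold difference. Egln1 stood at 15.6, 22.4 and 16.3 CPM in knockout libraries, against 18.3, 16.5 and 17.3 CPM in WT libraries. Its groups overlapped, and it did not pass: the log2 fold change was 0.06 (SE 0.19, 95% interval -0.36 to 0.47, edgeR adjusted p = 0.926). With library size alone it was -0.11. The ratio of Egln3 to Egln1 counts within a library was 10.6, 7.16 and 8.47 in knockout, against 3.32, 3.69 and 5.56 in WT libraries. That ratio does not depend on scaling, and was computed after both values were seen. Egln2, the family member not induced by hypoxia, did not pass (log2 fold change 0.11, SE 0.14, edgeR adjusted p = 0.789).

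Ndrg1 encodes a cytoplasmic stress protein that is a standard marker of hypoxic cells. It stood at 142, 168 and 135 CPM in knockout libraries, against 63.5, 62.5 and 90.7 CPM in WT libraries. The groups were apart, with WT replicate 3 again the highest of its group. Ndrg1 had a log2 fold change of 1.04 (SE 0.16, 95% interval 0.69 to 1.40, edgeR adjusted p = 0.0164). Of its relatives, Ndrg3 did not pass at 32.5 ± 2.44 CPM in knockout and 33.3 ± 7.67 CPM in WT libraries (SD, n = 3 each), and Ndrg2 and Ndrg4 averaged at most 2.14 CPM in either group. The exons of Ndrg1 share 419 of 6596 bases with the opposite-strand gene Gm17035, and no source used here gives the strand setting of the counting.

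Hilpda encodes a small lipid droplet protein that inhibits the triglyceride lipase Pnpla2 and so favours lipid storage. It was the most abundant of the 10 per length, and the best separated relative to its error. It stood at 902, 843 and 814 CPM in knockout libraries, against 447, 479 and 537 CPM in WT libraries. The lowest knockout library lay well above the highest WT library. On the log2 scale the change was 0.81 (SE 0.10, 95% interval 0.58 to 1.03, edgeR adjusted p = 0.00806). Among 8 listed genes of lipid droplet lipolysis 5 were tested and none passed by edgeR (2 had an unadjusted p below 0.05, and DESeq2 and limma-voom called 0). Plin3 averaged 118 ± 10.9 CPM in knockout and 112 ± 13.01 CPM in WT libraries (SD, n = 3 each). The list also held Plin2, the main droplet coat protein of non-fat cells, at 1039 ± 80.7 CPM in knockout and 848 ± 82.4 CPM in WT libraries, and Pnpla2 at 70.2 ± 2.88 CPM in knockout and 65.4 ± 6.45 CPM in WT libraries (SD, n = 3 each).

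Bnip3 encodes an outer mitochondrial membrane protein that tethers mitochondria to the autophagy machinery for removal. Its level was 1098, 1143 and 997 CPM in knockout libraries, against 596, 597 and 818 CPM in WT libraries. The groups were apart, with WT replicate 3 closest to the knockout range. Its log2 fold change was 0.69 (SE 0.13, 95% interval 0.39 to 0.98, edgeR adjusted p = 0.0284), and the adjusted p was 0.0519 with library size alone. Of its near-identical copies, Gm16439, a pseudogene that matches 98.9% of 564 aligned bases, averaged 2.38 CPM in knockout and 2.07 CPM in WT libraries. The longest match, AC160336.1 at 98.3% of 858 aligned bases, had no row of counts. The exons of Bnip3 share 504 of 2265 bases with the opposite-strand gene Gm45507, which also had no row of counts. The related receptor Bnip3l stood at 321, 302 and 269 CPM in knockout, against 180, 195 and 244 CPM in WT libraries, and missed the threshold (log2 fold change 0.53, SE 0.13, edgeR adjusted p = 0.0657). The ratio of Bnip3 to Bnip3l within a library was 3.42, 3.78 and 3.71 in knockout, against 3.30, 3.06 and 3.36 in WT libraries, computed after both were seen. Of 11 mitophagy genes 10 were tested and 1 passed, Gabarap, a partner to which such receptors dock (log2 fold change 0.54, SE 0.11, edgeR adjusted p = 0.0364). Sqstm1 averaged 499.9 ± 62.99 CPM in knockout and 501 ± 44.95 CPM in WT libraries, and Map1lc3b averaged 343 ± 2.16 CPM in knockout and 329 ± 17.4 CPM in WT libraries (SD, n = 3 each), and neither passed. The call of Gabarap was lost in each of the 6 fits that left out a library.

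**Figure D2:**
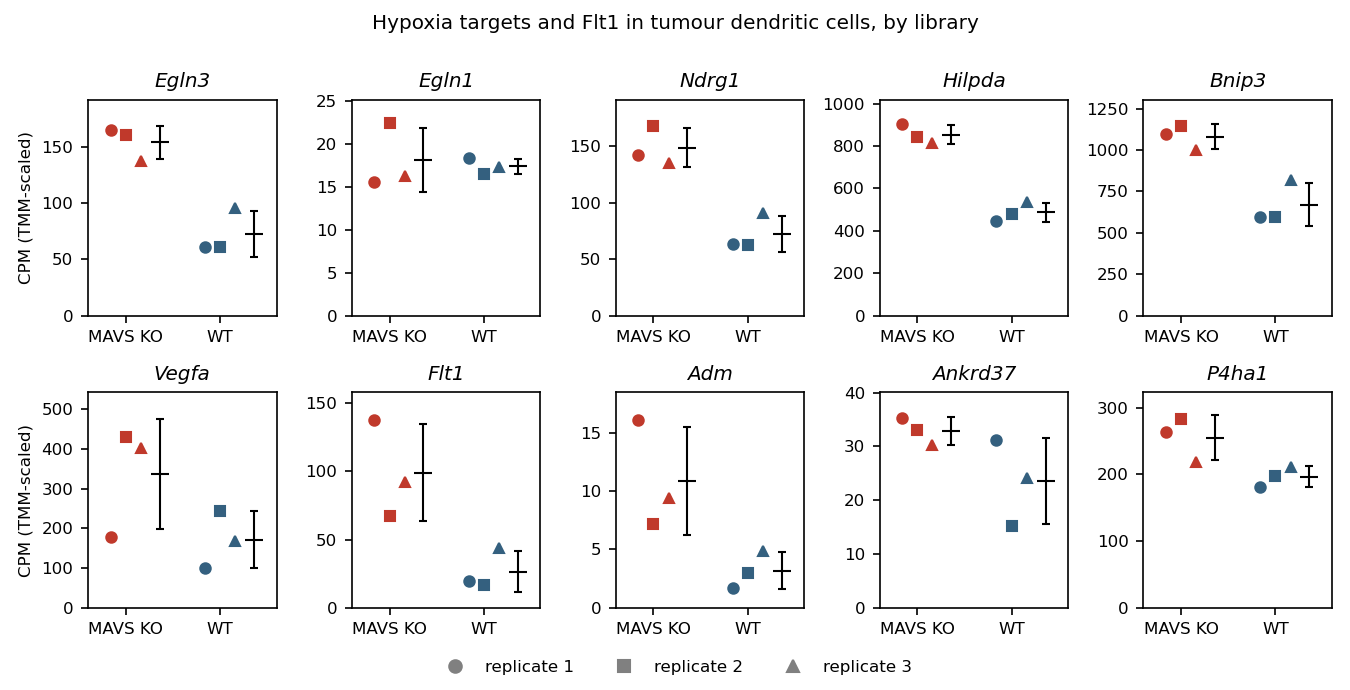
TMM-scaled CPM of the 10 genes in each library, with the mean and SD of each group beside the points (n = 3 each); marker shapes give the replicate number. Knockout and WT points are apart for Egln3, Ndrg1, Hilpda, Bnip3, Flt1, Adm and P4ha1, and overlap for Egln1, Vegfa and Ankrd37.

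Flt1, a receptor for Vegfa and placental growth factor (Pgf), is known on endothelium and also on monocytes and macrophages. It showed the widest change of the 10. Flt1 stood at 137, 67.1 and 92.3 CPM in knockout libraries, against 19.4, 17.0 and 43.5 CPM in WT libraries. The groups did not overlap, although each spread more than 2-fold from its lowest to its highest library. The log2 fold change was 1.89 (SE 0.35, 95% interval 1.11 to 2.67, edgeR adjusted p = 0.0261), a 3.71-fold difference. Without each library in turn the log2 fold change ranged from 1.58 to 2.44 and the adjusted p from 0.00568 to 0.102.

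Most of the listed endothelial markers with counts were below 1 CPM in every library, but Pecam1 was not. Of 16 listed, 13 had a row, 9 of these were below 1 CPM in every library (Cdh5, Tek, Tie1, Emcn, Esam, Egfl7, Sox17, Sox18 and Ramp2), and 3 were tested, none passing by edgeR (1 had an unadjusted p below 0.05, and DESeq2 and limma-voom called 0). Cdh5, the endothelial cadherin, was at 0 CPM in all 3 knockout libraries, and had counts only among WT libraries, at below 1 CPM. The other main VEGF receptor, Kdr, averaged 1.54 ± 0.458 CPM in knockout and 2.64 ± 0.177 CPM in WT libraries (SD, n = 3 each). Of the 3 tested markers, 2 had a log2 fold change above 0, and their median was 0.34. The summed level of the list was 51.0 to 90.0 CPM in knockout and 33.6 to 55.9 CPM in WT libraries, most of it Pecam1, which leukocytes also express. Pecam1 stood at 69.7, 37.6 and 48.0 CPM in knockout, against 30.8, 21.3 and 41.7 CPM in WT libraries, and did not pass (edgeR adjusted p = 0.203). Within each group, its libraries ranked in the same order as those of Flt1. Any part of endothelial cells in the Flt1 counts was not tested.

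**Figure D3:**
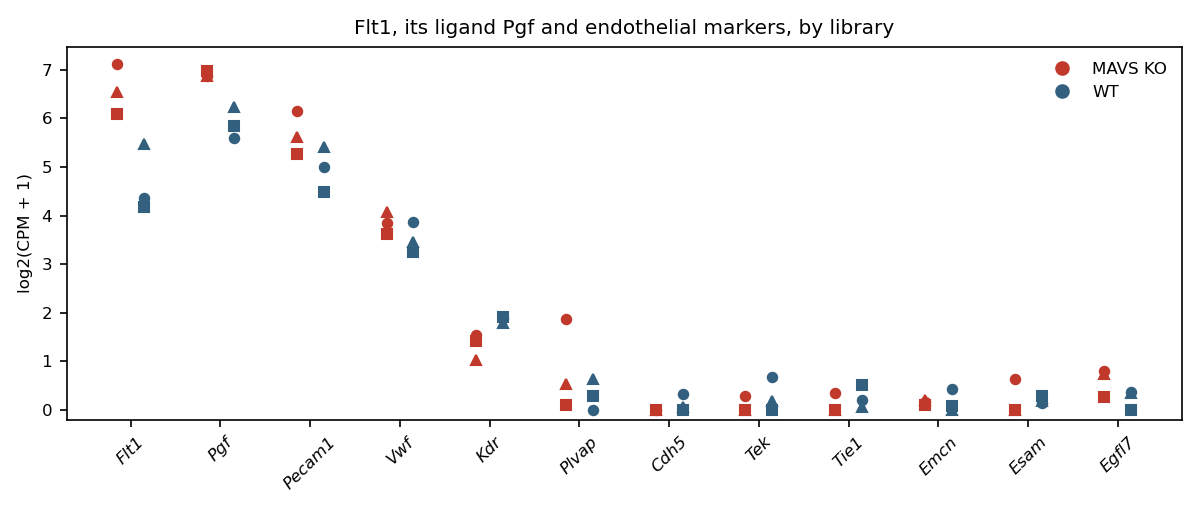
Level of Flt1, its ligand Pgf and 10 endothelial markers in each library, as log2(CPM + 1), with MAVS knockout left of WT for each gene; marker shapes give the replicate. Flt1 and Pgf are separated by genotype, while the strictly endothelial genes from Cdh5 to Egfl7 lie near 0 in both groups.

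Vegfa and Pgf, both ligands of Flt1, differed in how firmly they changed. Vegfa, the central angiogenic factor, stood at 179, 431 and 401 CPM in knockout libraries, against 101, 244 and 169 CPM in WT libraries. Knockout replicate 1 fell within the WT range while the other 2 lay above it. Its log2 fold change of 0.98 (SE 0.34, 95% interval 0.21 to 1.74) did not pass (edgeR adjusted p = 0.188). DESeq2 (adjusted p = 0.286) and limma-voom (0.209) did not call it, nor did edgeR without each library in turn (0.0808 to 0.477). It was called in edgeR with a replicate block (adjusted p = 0.00474) and with no filter on low counts (1.06e-11). Without the filter its SE was 0.13, and 924 genes were called in all, against 354. Vegfa was low in all 3 libraries with more genes counted and high in the other 3, whatever their genotype. Within the libraries with more genes counted it was 179 CPM in the 1 knockout library and averaged 135 CPM in the 2 WT libraries. Within those with fewer it averaged 416 CPM in the 2 knockout libraries and was 244 CPM in the 1 WT library. With that class as a covariate, a fit chosen after seeing the data, the log2 fold change was 0.59 (SE 0.19, edgeR adjusted p = 0.158).

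Pgf, which binds Flt1 and not Kdr, rose. It stood at 117, 124 and 115 CPM in knockout libraries, against 47.5, 56.2 and 74.4 CPM in WT libraries, and passed (log2 fold change 1.00, SE 0.16, edgeR adjusted p = 0.0164). The knockout libraries were close to each other and the groups were apart. Of 8 listed VEGF family genes 6 were tested and Pgf was the 1 that passed. Of these 6, 3 had a log2 fold change above 0. Groups did not overlap for 4, of which 2 were higher in knockout. The co-receptors did not pass: Nrp1 averaged 45.8 ± 6.50 CPM in knockout and 47.4 ± 5.77 CPM in WT libraries, and Nrp2 averaged 84.1 ± 12.6 CPM in knockout and 61.4 ± 12.0 CPM in WT libraries (SD, n = 3 each).

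**Figure D4:**
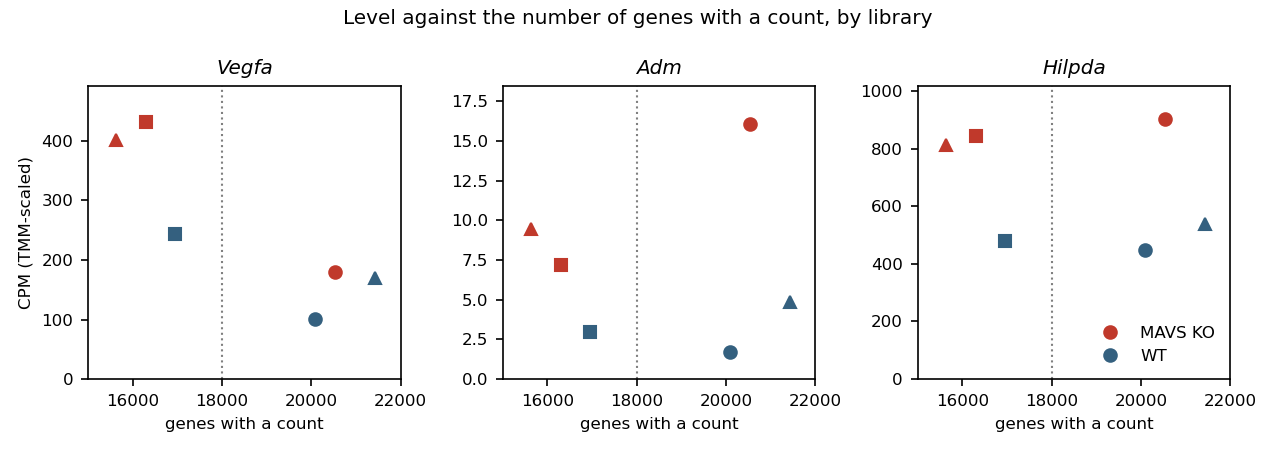
TMM-scaled CPM of Vegfa, Adm and Hilpda in each library against the number of genes with a count; the dotted line at 18000 divides the 2 ranges. Vegfa is lower in the 3 libraries right of the line than in those left of it. On each side of the line, knockout lies above WT for Vegfa, Adm and Hilpda.

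Adm encodes adrenomedullin, a vasodilating peptide hormone. It rests on 286, 107 and 129 counts in knockout libraries and 35, 56 and 106 counts in WT libraries. These are 16.1, 7.18 and 9.45 CPM in knockout, against 1.73, 2.99 and 4.88 CPM in WT libraries. The groups did not overlap, with knockout replicate 1 far above the other libraries. The log2 fold change was 1.77 (SE 0.41, 95% interval 0.85 to 2.68), and at an edgeR adjusted p of 0.0508 it fell just short of the threshold. DESeq2 called it (adjusted p = 0.000632) and limma-voom did not (adjusted p = 0.0553). It also passed in edgeR with no filter on low counts (adjusted p = 2.2e-06), with a filter at a mean of 5 CPM (adjusted p = 0.0389), with the library class as a covariate (0.0337) and without WT replicate 3 (0.0391). Its receptor is Calcrl joined to Ramp2 or Ramp3. Calcrl averaged 10.9 ± 6.11 CPM in knockout and 8.40 ± 0.866 CPM in WT libraries, and Ramp3 averaged 26.7 ± 2.60 CPM in knockout and 21.8 ± 6.90 CPM in WT libraries (SD, n = 3 each). Neither passed. Ramp1, which turns Calcrl into a receptor for the neuropeptide CGRP, fell, at 15.3, 11.7 and 12.1 CPM in knockout, against 33.9, 24.0 and 22.3 CPM in WT libraries (log2 fold change -1.03, SE 0.21, edgeR adjusted p = 0.032).

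P4ha1 encodes a catalytic subunit of the collagen prolyl hydroxylase, an enzyme distinct from the Egln family. It stood at 263, 284 and 218 CPM in knockout libraries, against 181, 197 and 212 CPM in WT libraries. The groups were apart by a narrow gap, between knockout replicate 3 and WT replicate 3. Its log2 fold change of 0.38 (SE 0.12, 95% interval 0.11 to 0.65) did not pass (edgeR adjusted p = 0.154). The sister subunit P4ha2, at a lower level, rose: 65.4, 59.7 and 46.5 CPM in knockout, against 20.4, 27.9 and 38.6 CPM in WT libraries, which passed (log2 fold change 0.98, SE 0.22, edgeR adjusted p = 0.0449). The ratio of P4ha2 to P4ha1 counts within a library was 0.248, 0.210 and 0.213 in knockout, against 0.113, 0.141 and 0.182 in WT libraries, computed after both were seen. Their shared partner P4hb, also the general disulfide isomerase of the secretory pathway, averaged 1382 ± 41.6 CPM in knockout and 1124 ± 23.7 CPM in WT libraries (SD, n = 3 each) and did not pass (edgeR adjusted p = 0.103). The prolyl isomerase Ppib averaged 63.8 ± 4.74 CPM in knockout and 58.4 ± 9.49 CPM in WT libraries (SD, n = 3 each) and did not pass.

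Ankrd37 encodes an ankyrin repeat protein used as a hypoxia marker. It stood at 35.4, 33.0 and 30.2 CPM in knockout libraries, against 31.2, 15.3 and 24.1 CPM in WT libraries. WT replicate 1 reached the knockout range, and the WT libraries spread widely. Its log2 fold change of 0.48 (SE 0.23, 95% interval -0.03 to 0.99) did not pass (edgeR adjusted p = 0.341). Its exons share 57 of 1539 bases with Ufsp2 and 349 with Lrp2bp, both on the opposite strand. Ufsp2 averaged 90.3 CPM in knockout and 85.1 CPM in WT libraries, and the part of such shared bases in the counts of Ankrd37 was not tested.

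Levels of different genes were compared as CPM per kilobase of exon. Hilpda, at 773 in knockout and 442 in WT libraries, and Bnip3, at 476 in knockout and 296 in WT libraries, stood far above the rest. Vegfa (78.7 in knockout and 40.0 in WT), P4ha1 (62.0 in knockout and 47.8 in WT) and Egln3 (58.0 in knockout and 27.3 in WT) came next. In knockout libraries these 3 overlapped, with Vegfa from 41.8 to 101, P4ha1 from 53.1 to 69.0 and Egln3 from 51.8 to 61.9. In WT libraries Egln3 reached at most 36.1, below the lowest P4ha1 value of 43.9. Ndrg1 had 22.6 in knockout and 10.95 in WT, and Ankrd37 had 21.4 in knockout and 15.3 in WT. Flt1 (7.33 in knockout and 1.97 in WT), Adm (6.73 in knockout and 1.98 in WT) and Egln1 (5.03 in knockout and 4.83 in WT) were the least abundant per kilobase.

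Within a group, the libraries kept a partly shared order over the 10 genes. WT replicate 3 was the highest of its group for 7 and the lowest for none, while WT replicate 1 was the lowest for 6 and WT replicate 2 for 4. Among knockout libraries, replicate 3 was the lowest for 6 and the highest for none, and replicates 1 and 2 were each the highest for 5. The genes are not independent of each other in this respect, since they share libraries and scaling.

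The other listed hypoxia targets outside glycolysis moved in part. Of 46 listed genes 45 had a row and 39 were tested, of which 5 rose, none fell and 34 did not pass. Their median log2 fold change was 0.44, against -0.0022 over all tested genes, and 34 of 39 were above 0. The members that rose were Pgf, P4ha2, the vasoconstrictor Edn1 (30.3 ± 3.61 CPM in knockout and 14.3 ± 3.19 CPM in WT libraries), the haem-degrading enzyme Hmox1 (251 ± 32.5 CPM in knockout and 140 ± 25.8 CPM in WT libraries), and Ero1l, an oxidase of disulfide formation (991 ± 102 CPM in knockout and 531 ± 169 CPM in WT libraries; SD, n = 3 each). Hmox1 also responds to haem and oxidative stress. Groups did not overlap for 22 of the 39, against 21.8% of tested genes. In the glycolysis list, which is the branch left out here, 8 of 23 tested genes rose and none fell, with a median of 0.42. Tpi1 (0.57, SE 0.09), Pgam1 (0.51, SE 0.09), the glucose transporter Slc2a1 (0.67, SE 0.13) and Pgk1 (0.48, SE 0.10) were among them as log2 fold changes. Of the 6 fits that left out 1 library, Pgf, Edn1, Hmox1 and Tpi1 passed in 3, and P4ha2, Ero1l, Ramp1, Pgam1, Slc2a1 and Pgk1 in 1. With library size alone the counts were 3 for the other targets and 2 for glycolysis.

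**Figure D5:**
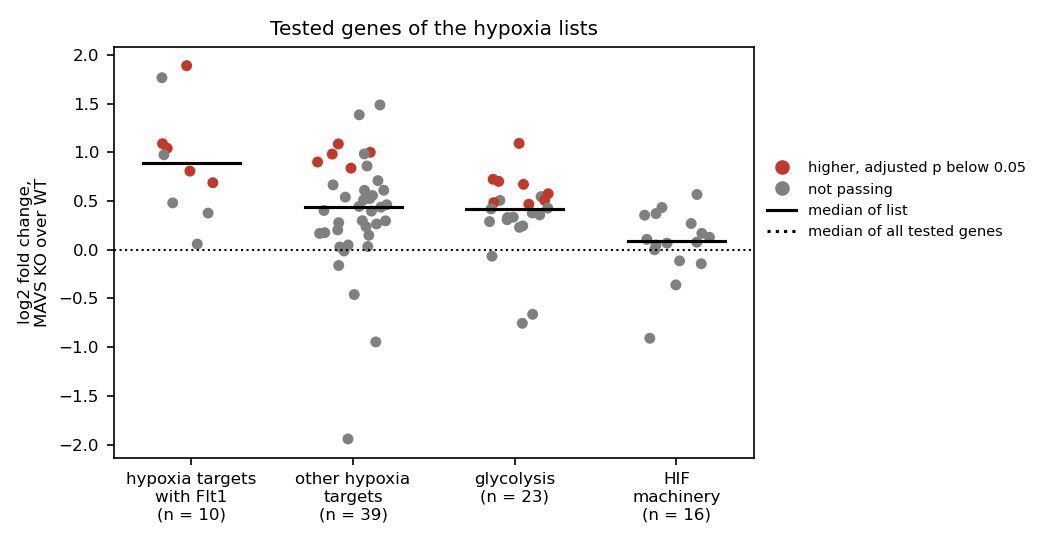
Log2 fold change, MAVS knockout over WT, of the tested genes in 4 lists; bars give each list's median, the dotted line the median of all tested genes, and red marks genes that rose at an adjusted p below 0.05. The hypoxia targets with Flt1 have a median of 0.89, the other hypoxia targets 0.44, glycolysis 0.42 and the HIF machinery 0.09.

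Transcripts of the HIF machinery other than Egln3 and Egln1, which were counted among the 10 genes, did not pass. Of 18 listed genes 16 were tested and none was called by edgeR, while 1 had an unadjusted p below 0.05, DESeq2 called 1 and limma-voom called 0. The gene in question was Hif1a, the alpha subunit, which stood at 430, 456 and 480 CPM in knockout libraries, against 285, 394 and 332 CPM in WT libraries. Its groups did not overlap, and its log2 fold change was 0.43 (SE 0.13, edgeR adjusted p = 0.107; DESeq2 adjusted p = 0.0319). Epas1, the other main alpha subunit, averaged 0.682 ± 0.403 CPM in knockout and 1.30 ± 1.18 CPM in WT libraries (SD, n = 3 each). Arnt stood at a log2 fold change of 0.08 (SE 0.15, 95% interval -0.24 to 0.40) and Vhl of -0.11 (SE 0.13, 95% interval -0.41 to 0.18). HIF is controlled largely through protein stability, which these data did not measure. Hif1a, Epas1, Arnt, Vhl, Egln2, Bnip3l, Pecam1, Kdr, Cdh5, Zbtb46, Sirpa and Ccr7 were chosen after their values were seen.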

How the data were processed

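RNA sequencing measured 6 libraries, 3 from MAVS knockout and 3 from WT mice. The authors deposited whole-number read counts for each Ensembl gene, not normalized. Per the submitters' processing notes the build was mm10 and the tools named were HISAT2, HISAT, HTSeq and DESeq2. No source used here gives their roles, versions or settings, the annotation, the strandedness of counting, or how the cells were sorted. GENCODE M21 supplied symbols, positions and exon lengths for 26383 of 26519 identifiers.

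Tests used edgeR 4.0.16 (R 4.3.3). Low genes were dropped by filterByExpr at a count of 10 and a total of 15, and TMM factors, the quasi-likelihood F test with no covariate and Benjamini-Hochberg adjustment over all 12580 genes tested followed. SE and 95% intervals come from that fit. Alternatives used DESeq2 1.42.0 and limma 3.58.1; the library class, set at 18000 genes with a count, and the within-library ratios were added after seeing the data. Copies of genes were sought with BLAST+ 2.17.0 at 95% identity over 200 bases. The fit was tested on simulated data. Libraries of a group differed beyond sampling noise (chi-square over its degrees of freedom, 15.9 to 38.8). Genes named beyond the 10 were, per list, up to 4 of the smallest p among those called, and the 3 most abundant of each family or partner list. The genes and lists were chosen with earlier results of these data known.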

Additional observations from a re-analysis of the deposited data

How the results depend on the processing

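With 3 libraries per group, the counts of calls rested on single libraries. Calls over all genes numbered 354, against 924 with no filter on low counts, 738 with DESeq2's Wald test and 149 past a log2 size of 1. When single libraries were left out, 36 to 277 genes were called in all, with 1 to 6 of the 10 hypoxia genes, 0 to 6 of the other hypoxia targets, and 0 to 7 of glycolysis. Past a log2 size of 1, 3 of the 10, 2 other targets and 1 glycolysis gene were left. With no filter, 7 of the 10 (Vegfa and Adm added), 11 other targets, 13 glycolysis genes and 1 gene of the HIF machinery were called; DESeq2 called 6 of the 10 (Adm added), 10 other targets and 1 gene of the HIF machinery. The cause of these shifts was not tested. With library size alone the median log2 fold change over all tested genes moved to -0.17 and the split of calls to 102 higher and 341 lower, against 222 higher and 132 lower with TMM; the other targets then numbered 3 and glycolysis 2.

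The labels do not say whether same-numbered libraries were paired. Deviations of same-numbered libraries from their group means correlated at 0.038, 0.087 and -0.043, which cannot exclude a pairing. With a replicate block 414 genes and 6 of the 10 were called, Vegfa added (edgeR adjusted p = 0.00474), and no call among the 10 was lost. Without the block, the edgeR adjusted p of Vegfa was 0.188 in the main fit and 0.0808 to 0.477 without single libraries.

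Signs turned for some genes that had not passed. With library size alone the log2 fold change was -0.11 for Egln1, -0.042 for Ppib, -0.088 for Plin3, -0.068 for Pnpla2 and -0.11 for Map1lc3b, and with the library class as a covariate it was 0.059 for Sqstm1. Leaving out single libraries gave -0.12 to 0.16 for Egln1, -0.15 to 0.054 for Nrp1, -0.17 to 0.64 for Calcrl, -0.0099 to 0.20 for Ppib, -0.22 to 0.10 for Ndrg3, -2.15 to 0.029 for Ndrg4, and -0.11 to 0.076 for Sqstm1.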
